A study of Ovis aries with 16 samples.

Results

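The 9 genes described here are transcription factors known to drive fat cell formation: PPARG, RXRA, CEBPA, CEBPB, CEBPD, KLF15, EBF1, EBF2 and ZNF423. They were listed by name, with earlier results of these data known, and all 9 were found among the 28524 genes of the deposited count table. RNA sequencing of whole fat gave 16 libraries in 4 groups of 4 from female sheep: visceral fat of BPA ewes, visceral fat of control ewes, subcutaneous fat of BPA ewes and subcutaneous fat of control ewes. The BPA ewes had mothers that received bisphenol A, a plastics chemical with weak oestrogen-like activity, at 0.5 mg/kg/day in corn oil from gestation day 30 to day 90 of a term of 147 days. The mothers of control ewes received corn oil alone. All ewes were 21 months old, were fed to maintain weight and had their cycles synchronized with prostaglandin, and tissue was taken 24 hours after the last injection. Visceral fat was mesenteric fat from around the rumen, and subcutaneous fat was taken over the sternum, so each depot is known here from 1 site.

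Fat cells form when progenitor cells of the stroma commit to the lineage and then switch on the genes of lipid storage. In cultured mouse cells, C/EBPβ and C/EBPδ act early and induce PPARγ and C/EBPα, which then maintain each other and the mature adipocyte. PPARγ binds DNA as a pair with a retinoid X receptor, of which RXRα is one. KLF15 acts later and adds to the expression of the insulin-responsive glucose transporter. EBF1 and EBF2 are early B-cell factors that act in committed progenitors and adipocytes, and ZNF423 is a zinc-finger protein that marks committed progenitors and acts upstream of PPARγ.

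Library totals were 6.77 to 14.3 M counts in visceral BPA fat and 11.0 to 13.1 M in visceral control fat. They were 3.05 to 4.83 M in subcutaneous BPA fat and 4.74 to 6.22 M in subcutaneous control fat, so visceral libraries were deeper. Depot divided the libraries along the first principal component (32.9% of the variance), and the next one (14.6%) set visceral BPA replicate 977 apart. The 6 adipocyte markers ADIPOQ, PLIN1, FABP4, LPL, CIDEC and LEP summed to 12766 to 23031 CPM in visceral BPA fat, 18587 to 27135 CPM in visceral control fat, 11767 to 19548 CPM in subcutaneous BPA fat and 9383 to 18836 CPM in subcutaneous control fat. CPM are read counts per 1 M counts of the library, after TMM scaling. The sum of the 14 markers of progenitors and fibroblasts was lower without overlap in visceral than in subcutaneous control fat (4359 to 5397 against 7162 to 10217 CPM). It overlapped between depots in BPA ewes (ratio of means 0.950). Mesothelial markers (9 of 10 in the table) summed to 61.1 to 134 CPM in visceral control fat and 4.29 to 9.04 CPM in subcutaneous control fat, and visceral BPA replicate 977, which had the lowest adipocyte sum of its group, had 346 CPM of them. The sum of smooth muscle markers was higher in visceral fat without overlap in BPA ewes (1050 to 4017 against 585 to 963 CPM) and in control ewes (705 to 1557 against 498 to 692 CPM). The sum of skeletal muscle markers was lower there in control ewes (7.79 to 17.8 against 32.3 to 80.1 CPM). In whole tissue, fewer cells of a type and less RNA per cell cannot be told apart, and the part of these marker differences in the results below was not tested.

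A replicate's name is the number in its title. Of the 11 numbers, 5 occur in both depots, 902, 924 and 928 among controls and 918 and 977 among BPA ewes. The numbers are treated as animals in the control ewes, where same-numbered libraries deviated together, when pairs are set side by side. The main fits and the permutation tests between groups treat the libraries as unpaired, and the number enters only the fits with a block. The labels do not state that the 4 libraries of a group come from 4 separate animals, so p-values measure the spread between these libraries.

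All 9 factors passed the filter on low counts in every comparison, with at least 215 counts in each library (the lowest was KLF15 in a subcutaneous control). Compared per kilobase of exon (RPKM), the mean level over the 16 libraries was highest for CEBPB at 185 RPKM, followed by CEBPA at 148, CEBPD at 103 and PPARG at 87.0 RPKM. EBF1 followed at 71.5, ZNF423 at 44.6 and RXRA at 41.5 RPKM, and EBF2 at 13.8 and KLF15 at 12.9 RPKM were the lowest. RXRA lay above EBF2 in 16 of 16 libraries, the only step of this order with no overlap of the ranges. EBF1 lay above ZNF423 within each of the 16 libraries, although their ranges touched. CEBPB lay above CEBPA in 13 libraries, CEBPA above CEBPD in 13, CEBPD above PPARG in 10 and PPARG above EBF1 in 9. The top and the middle of the order were thus not settled. Nor were the steps from ZNF423 to RXRA (above in 9 libraries) and from EBF2 to KLF15 (above in 11). The order differed between depots. In visceral control fat PPARG had rank 3 (113 RPKM) and lay above EBF1 in all 4 libraries, and in subcutaneous control fat it had rank 5 (58.6 RPKM) and lay below EBF1 in all 4 libraries.

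Positions are those of the deposited table, whose genome build is not named, with chromosome numbers matched through gene names. PPARG lies on the minus strand of chromosome 19 at 58596710 to 58719346, with 13 exon blocks that sum to 2361 bases. CEBPA (chromosome 14, 46634838 to 46635925), CEBPB (chromosome 13, 81625076 to 81626491) and CEBPD (chromosome 9, 34440533 to 34442112) each consist of 1 block, of 1088, 1416 and 1580 bases. KLF15 lies on chromosome 19 at 62562126 to 62572870 in 2 blocks of 4857 bases, and RXRA on chromosome 3 at 1886358 to 1978936 in 12 blocks of 5787 bases. EBF1 spans chromosome 5 at 73217439 to 73627307 (17 blocks, 5933 bases), EBF2 chromosome 2 at 41658514 to 41878534 (16 blocks, 5061 bases) and ZNF423 chromosome 14 at 19353964 to 19672641 (9 blocks, 4665 bases). No other gene of the table overlaps any of the 9 spans (0 genes).

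The depot comparison asks whether the regulators of fat cell formation are expressed differently in visceral and subcutaneous fat. In control ewes PPARG was 1.92-fold higher in visceral fat and was 1 of 9 factors called, while 13.3% of the 14456 genes tested were called (7.17% higher and 6.16% lower). A call is an adjusted p under 0.05 in edgeR's quasi-likelihood test with Benjamini-Hochberg adjustment over all genes tested. In BPA ewes 0 of 9 factors were called, against 9.07% of 13782 genes (5.13% higher and 3.94% lower), and DESeq2 called 0. At an unadjusted p under 0.05 stood 2 of the 9 (PPARG and EBF2) and 3718 of the 13782 genes. When both exposures were averaged in a fit of all 16 libraries, a comparison added after seeing the data, 5 of 9 factors were called, 3 higher (PPARG, EBF1, ZNF423) and 2 lower (RXRA, EBF2) in visceral fat, against 29.9% of 14793 genes (15.6% higher and 14.3% lower). Of the factors not called there, CEBPA was at 0.35 ± 0.17 and CEBPD at -0.30 ± 0.17 on the log2 scale (SE; edgeR adjusted p = 0.124 and 0.213). KLF15 was at -0.20 ± 0.15 and CEBPB at 0.06 ± 0.15 (adjusted p = 0.354 and 0.789). The comparisons share libraries and are not independent of each other. With the number as a fixed block, PPARG alone of the 5 was called in that comparison.

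**Figure D1:**
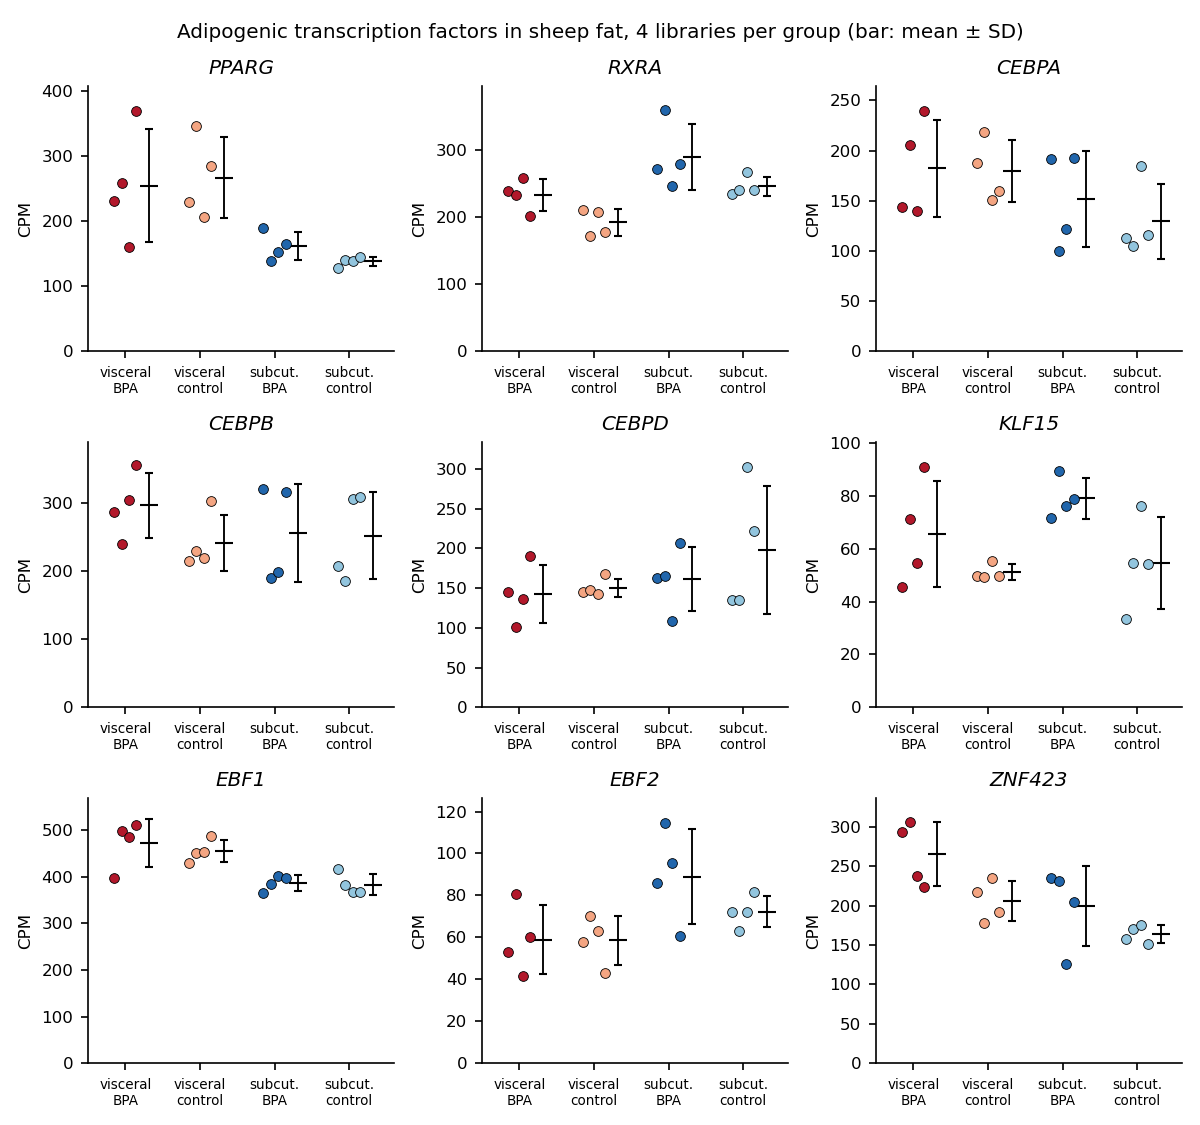
Normalised read count (CPM, y axis from 0) of each of the 9 factors in each library, by group; points are single libraries and the bar beside them is the mean ± SD of 4. PPARG in visceral control fat (207 to 347 CPM) lies above subcutaneous control fat (129 to 145 CPM) without overlap, while most other factors overlap between groups.

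PPARG, the nuclear receptor at the centre of the adipocyte programme, had 231, 259, 160 and 369 CPM in visceral BPA replicates 910, 918, 977 and 984, and 230, 347, 207 and 285 CPM in visceral control replicates 902, 908, 924 and 928. It had 190, 139, 153 and 165 CPM in subcutaneous BPA replicates 918, 922, 941 and 977, and 129, 139.9, 139.5 and 145 CPM in subcutaneous control replicates 902, 924, 928 and 931. Every visceral control library lay above every subcutaneous control library, and among BPA ewes visceral replicate 977 fell inside the subcutaneous range. The visceral control libraries spread more widely than the subcutaneous ones (267 ± 62.5 against 138 ± 6.87 CPM, SD, n = 4 each). In control ewes the difference was 0.94 ± 0.17 on the log2 scale (SE; 95% interval 0.57 to 1.30, edgeR adjusted p = 0.00568). In BPA ewes it was 0.64 ± 0.23 (0.14 to 1.13, adjusted p = 0.101), and without visceral replicate 977 it was 0.80 and called (adjusted p = 0.0215). In the fit of 16 libraries that difference in BPA ewes was also called (0.64, adjusted p = 0.0427). With the number as a fixed block, which in BPA ewes rests on numbers 918 and 977, it was 0.22 and was not called (adjusted p = 0.620). Over both exposures PPARG averaged 261 CPM in visceral and 150.1 CPM in subcutaneous fat, a log2 difference of 0.79 ± 0.15 (0.48 to 1.09, adjusted p = 0.000843).

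Libraries that carry the same number in both depots can be set side by side. Of these 5 pairs, 3 come from control ewes, where the number was taken as the animal, and 2 from BPA ewes, where the libraries of 977 did not deviate together and the pairing is unsettled. PPARG was higher in visceral fat in 4 of the 5 pairs, with visceral to subcutaneous ratios of 1.78 for 902, 1.48 for 924, 2.04 for 928 and 1.37 for 918, and a ratio of 0.968 for 977. The 3 control pairs thus lay on the same side, and 977 was the exception. ADIPOQ, the adiponectin gene of mature adipocytes, was also higher in visceral fat in 4 of 5 pairs, with 977 again the exception (ratio 0.781). PLIN1, another adipocyte marker, was higher there in 2 of 5 pairs, with ratios from 0.655 to 1.44.

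**Figure D2:**
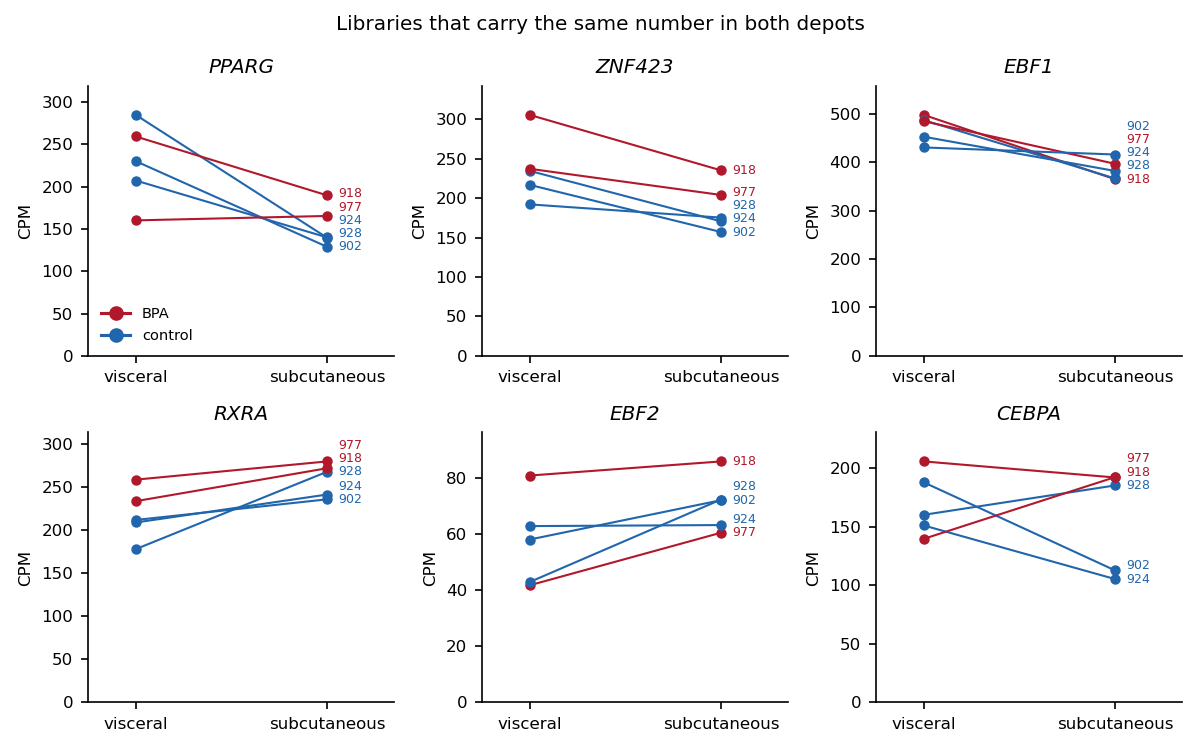
CPM of 6 factors in the 5 numbers found in both depots (y axis from 0); each line joins the visceral and the subcutaneous library of 1 number, red for BPA and blue for control. The visceral point is the higher one in 5 of 5 lines for EBF1 and ZNF423, in 4 of 5 for PPARG and in 0 of 5 for RXRA and EBF2.

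The level of PPARG was also set against that of adipocyte markers. Per 1000 counts of the 6 adipocyte markers, PPARG had 11.1 ± 1.61 counts in visceral control fat and 9.93 ± 3.38 in subcutaneous control fat (SD, n = 4 each), and these overlapped (exact two-sided permutation p = 0.486). Per 1000 counts of PLIN1 alone, which encodes the coat protein of the lipid droplet, PPARG had 66.7 ± 12.5 counts in visceral and 42.0 ± 8.67 in subcutaneous control fat, without overlap (exact permutation p = 0.0286, the smallest that 4 against 4 allow, and 0.186 after Benjamini-Hochberg adjustment over 52 tests of such ratios). In BPA ewes this ratio was 59.6 ± 15.3 in visceral and 40.1 ± 5.29 in subcutaneous fat, again without overlap (exact permutation p = 0.0286, adjusted 0.186). The ratio to the 6-marker sum thus overlapped between the control depots and the ratio to PLIN1 did not, though neither passed adjustment. Of the 6 markers only PLIN1 was taken alone, and ratios to the others were not tested. PPARG averaged 267 CPM in visceral and 138 CPM in subcutaneous control fat. In the same order PLIN1 averaged 3984 and 3416 CPM, CIDEC 810 and 687, and FABP4 6812 and 4637. LEP averaged 514 and 282 CPM, ADIPOQ 10795 and 5546, and LPL 1095 and 362. The result with PLIN1 thus need not hold for each of the others.

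RXRA, which encodes a partner of PPARγ on DNA, had estimates on the other side of 0. It had 239, 233, 258 and 202 CPM in visceral BPA replicates 910, 918, 977 and 984, and 211, 172, 208 and 178 CPM in visceral control replicates 902, 908, 924 and 928. Subcutaneous BPA replicates 918, 922, 941 and 977 had 271, 360, 246 and 279 CPM, and subcutaneous control replicates 902, 924, 928 and 931 had 235, 241, 267 and 241 CPM. All visceral control libraries lay below all subcutaneous control libraries. The difference was -0.36 ± 0.12 on the log2 scale and was not called (95% interval -0.63 to -0.09, edgeR adjusted p = 0.0738), although DESeq2 called it (adjusted p = 0.0198). In BPA ewes it was -0.32 ± 0.17 (adjusted p = 0.235), and over both exposures -0.35 ± 0.10 (adjusted p = 0.0131), which the fixed block did not keep (-0.26, adjusted p = 0.167). RXRA was lower in visceral fat in 5 of 5 same-numbered pairs, with ratios from 0.665 to 0.924.

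The ratio of PPARG to RXRA per kilobase was 2.37, 2.72, 1.52 and 4.49 in visceral BPA replicates 910, 918, 977 and 984, and 2.67, 4.94, 2.43 and 3.93 in visceral control replicates 902, 908, 924 and 928. It was 0.946 to 1.71 in subcutaneous BPA fat and 1.28 to 1.48 in subcutaneous control fat. In control ewes the depots did not overlap (3.49 ± 1.17 in visceral and 1.38 ± 0.0882 in subcutaneous fat, exact permutation p = 0.0286, Benjamini-Hochberg 0.186). In BPA ewes they did, through visceral replicate 977 (2.78 ± 1.25 and 1.41 ± 0.327, exact permutation p = 0.0857). Within visceral fat, with group means removed, the log2 levels of PPARG and RXRA were opposed over the 8 libraries (Pearson r = -0.94, exact permutation p = 0.00521; Spearman rho = -0.98, exact permutation p = 0.0139; libraries permuted within exposure). Without the 2 libraries farthest from the median of PPARG, r was -0.93. In subcutaneous fat r was -0.45 (exact permutation p = 0.477) and rho -0.29 (exact permutation p = 0.604). There r was 0.50 without the 2 farthest libraries, so the opposition was seen in visceral fat only. These were 2 of 72 relations among the 9 factors in both depots, and none passed Benjamini-Hochberg adjustment (smallest 0.375 for r and 0.333 for rho). The smallest p that the exact permutation allows is 0.00174, so no single relation could have passed alone. Both genes enter the ratio and share the libraries and their scaling, so the relation describes these libraries.

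**Figure D3:**
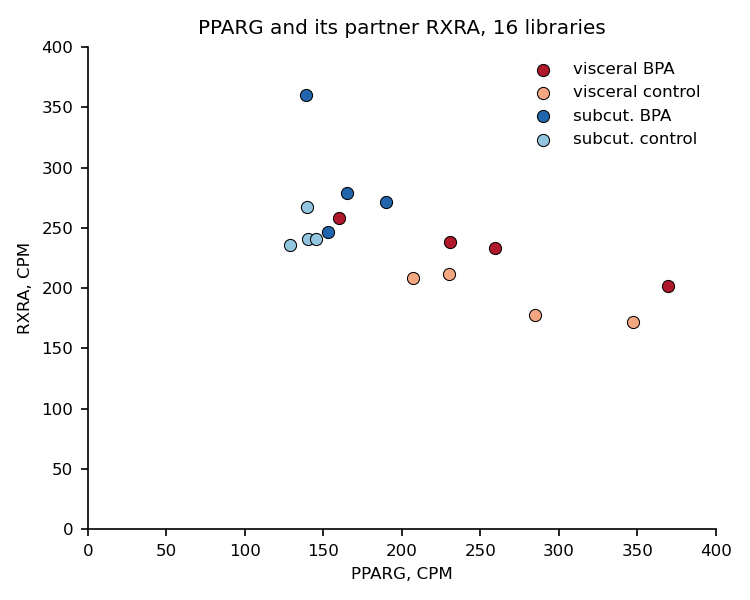
PPARG against RXRA in the 16 libraries, x and y axes in CPM from 0, with a colour for each group. Visceral control libraries lie at 207 to 347 CPM of PPARG and 172 to 211 CPM of RXRA, and subcutaneous control libraries at 129 to 145 and 235 to 267 CPM.

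The C/EBP genes, which encode basic leucine zipper factors of the early and late programme, did not differ between depots by any called amount. CEBPA, the long-term partner of PPARγ, had 144, 206, 139.5 and 239.7 CPM in visceral BPA replicates 910, 918, 977 and 984, and 188, 219, 151 and 160.0 CPM in visceral control replicates 902, 908, 924 and 928. Subcutaneous levels were 100.2 to 192 CPM in BPA fat and 105 to 185 CPM in control fat, so all 4 groups overlapped. The depot difference in control ewes was 0.46 ± 0.19 (edgeR adjusted p = 0.143), and without subcutaneous control 928, the highest library of its group, it was 0.68 and called (adjusted p = 0.0314). In BPA ewes it was 0.25 ± 0.25 (adjusted p = 0.559), and CEBPA was higher in visceral fat in 3 of 5 pairs.

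CEBPB and CEBPD encode the early-acting members. CEBPB had 239.8 to 356 CPM in visceral BPA, 215 to 303 CPM in visceral control, 189 to 321 CPM in subcutaneous BPA and 186 to 309 CPM in subcutaneous control fat. Its depot difference was -0.07 ± 0.19 in control ewes (95% interval -0.49 to 0.36) and 0.20 ± 0.21 in BPA ewes (-0.27 to 0.67). CEBPD had 101.0 to 190.0 CPM in visceral BPA, 143 to 167 CPM in visceral control, 109 to 207 CPM in subcutaneous BPA and 135 to 302 CPM in subcutaneous control fat. Its depot difference was -0.40 ± 0.24 in control ewes (adjusted p = 0.278) and -0.18 ± 0.23 in BPA ewes (adjusted p = 0.642). Without subcutaneous controls 902 and 924 together, the control difference of CEBPD was -0.82 and called (adjusted p = 0.0195), a fit that leaves 2 subcutaneous controls. CEBPB and CEBPD were the only 1 of 36 pairs of factors with r over 0.7 in both depots, over 8 libraries each with group means removed. In visceral fat r was 0.86 (exact permutation p = 0.0139) and Spearman rho 0.93 (exact permutation p = 0.0122). In subcutaneous fat r was 0.78 (exact permutation p = 0.0938) and rho 0.45 (exact permutation p = 0.292). Neither passed Benjamini-Hochberg adjustment over the 72 relations, with 0.406 and 0.554 for r, which no single relation could pass alone. Without the 2 libraries farthest from the median of CEBPB r was 0.84 in visceral and 0.88 in subcutaneous fat.

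KLF15, the Krüppel-like factor of the late programme, had 45.6, 71.1, 54.6 and 90.9 CPM in visceral BPA replicates 910, 918, 977 and 984 and 49.3 to 55.5 CPM in visceral control fat. It had 71.5, 89.5, 76.2 and 78.8 CPM in subcutaneous BPA replicates 918, 922, 941 and 977 and 33.5, 54.7, 76.1 and 54.3 CPM in subcutaneous control replicates 902, 924, 928 and 931. The depots overlapped in control ewes (-0.11 ± 0.21, adjusted p = 0.767) and in BPA ewes (-0.29 ± 0.21, adjusted p = 0.410).

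EBF1 and EBF2, which encode related DNA-binding factors, had estimates on opposite sides of 0. EBF1 had 397, 497, 484 and 510.0 CPM in visceral BPA replicates 910, 918, 977 and 984, and 430.2, 450.4, 452 and 486 CPM in visceral control replicates 902, 908, 924 and 928. In subcutaneous fat it had 365, 384, 402 and 396 CPM in BPA replicates 918, 922, 941 and 977, and 416, 382, 366 and 368 CPM in control replicates 902, 924, 928 and 931. Visceral control libraries all lay above subcutaneous control libraries, and the BPA groups overlapped by visceral replicate 910 and subcutaneous replicate 941. Its depot difference was 0.24 ± 0.12 in control ewes (edgeR adjusted p = 0.199), 0.27 ± 0.15 in BPA ewes (0.259) and 0.25 ± 0.08 over both (0.0274; 0.28 and 0.142 with the fixed block). The last call was lost without visceral control 928, subcutaneous BPA replicate 918 or subcutaneous control 928 (adjusted p up to 0.0578). Over all 25 alternatives, these fits included, EBF1 lost this call in 6. It was higher in visceral fat in 5 of 5 pairs, with ratios from 1.04 to 1.36.

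EBF2, known in mice for its part in brown and beige fat identity, had the lower mean in visceral fat in both exposures. It had 53.2, 80.8, 41.7 and 60.0 CPM in visceral BPA replicates 910, 918, 977 and 984, and 58.0, 70.4, 62.8 and 42.9 CPM in visceral control replicates 902, 908, 924 and 928. Subcutaneous BPA replicates 918, 922, 941 and 977 had 85.9, 115, 95.3 and 60.5 CPM, and subcutaneous control replicates 902, 924, 928 and 931 had 72.0, 63.2, 72.3 and 81.7 CPM. The depots overlapped in both exposures, and neither difference was called (-0.61 ± 0.24, adjusted p = 0.131 in BPA ewes; -0.31 ± 0.16, adjusted p = 0.211 in control ewes). Over both exposures it was -0.46 ± 0.15 (95% interval -0.78 to -0.15, adjusted p = 0.0270; -0.34 and 0.128 with the fixed block). This call was lost without visceral control 928, subcutaneous BPA replicate 922 or 941, or subcutaneous control 931 (adjusted p up to 0.0674). EBF2 was lower in visceral fat in 5 of 5 pairs, by very little in 924 (ratio 0.994).

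ZNF423, the sheep counterpart of the mouse preadipocyte factor Zfp423, had 293, 305, 237 and 224 CPM in visceral BPA replicates 910, 918, 977 and 984, and 217, 178, 235 and 192 CPM in visceral control replicates 902, 908, 924 and 928. It had 235, 231, 126 and 204 CPM in subcutaneous BPA replicates 918, 922, 941 and 977, and 157, 171, 175 and 151 CPM in subcutaneous control replicates 902, 924, 928 and 931. Visceral controls lay above subcutaneous controls without overlap, though the margin was small. The depot difference was 0.32 ± 0.13 in control ewes (edgeR adjusted p = 0.127), 0.40 ± 0.21 in BPA ewes (0.242) and 0.36 ± 0.12 over both exposures (0.0382; 0.33 and 0.0791 with the fixed block). That last call was lost in 8 of 16 fits that each left out 1 library, with adjusted p up to 0.0743: visceral BPA 910 and 918, visceral control 902 and 924, subcutaneous BPA 941 and 977, and subcutaneous control 902 and 931. Of all 25 alternatives, these fits included, 10 lost it. ZNF423 was higher in visceral fat in 5 of 5 pairs, with ratios from 1.10 to 1.38, while the summed progenitor and fibroblast markers were lower there in control ewes. In all, the control depots did not overlap for 4 of the 9 factors, 3 higher and 1 lower in visceral fat, where 19.9% of all genes tested did not overlap (10.5% higher and 9.39% lower).

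**Figure D4:**
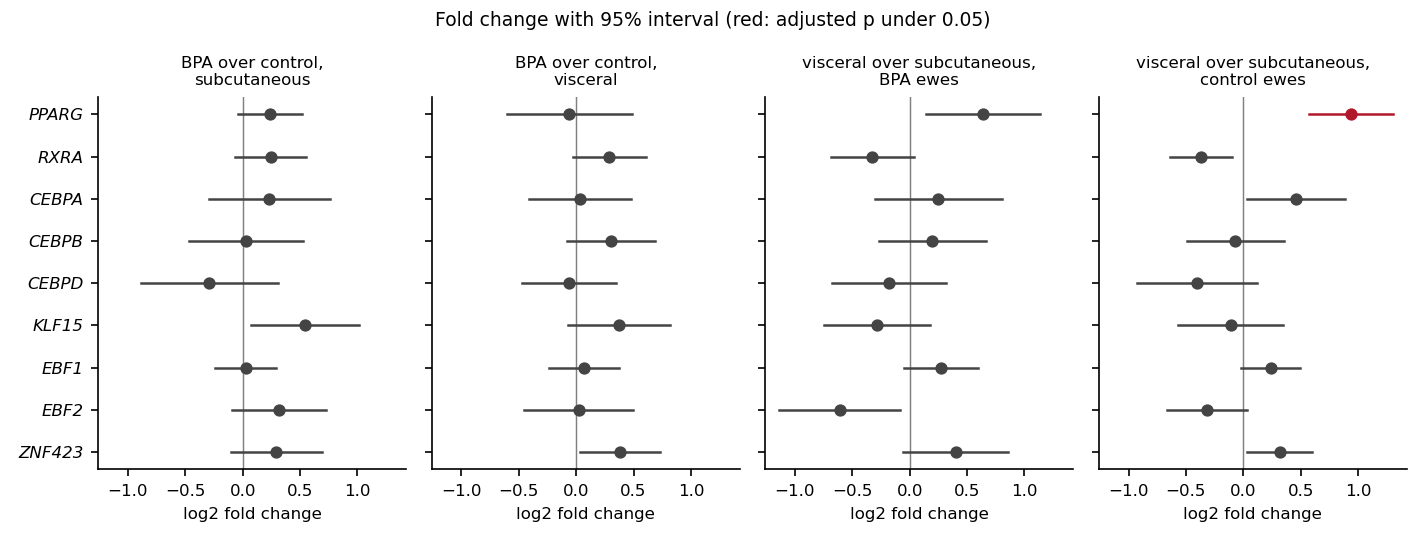
Log2 fold changes of the 9 factors with 95% intervals in the 4 comparisons of 2 groups (x axis, log2; 0 means no difference). PPARG in the depot comparison of control ewes (0.94, interval 0.57 to 1.30) is the only factor called among them.

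BPA and control ewes were compared in subcutaneous fat to ask whether prenatal exposure left these regulators changed in the adult depot. Here 0 of 9 factors were called by edgeR, against 0.709% of the 13535 genes tested, and 0 by DESeq2. At an unadjusted p under 0.05 stood 1 of the 9 factors and 1926 of the 13535 genes. The estimates lay above 0 for 8 of 9 factors, with a median of 0.23 against -0.01 for all genes. KLF15 had the smallest p: it averaged 79.0 ± 7.62 CPM in BPA fat and 54.7 ± 17.4 CPM in control fat (SD, n = 4 each), a log2 difference of 0.54 ± 0.21 (95% interval 0.07 to 1.01, adjusted p = 0.290). Control 928 (76.1 CPM) lay within the BPA range, and control 902 (33.5 CPM) was the lowest. PPARG averaged 162 ± 21.4 CPM in BPA fat and 138 ± 6.87 CPM in control fat (0.23 ± 0.13, interval -0.05 to 0.51, adjusted p = 0.439). RXRA (0.24 ± 0.14), EBF2 (0.31 ± 0.19) and ZNF423 (0.29 ± 0.18) had estimates of like size, with adjusted p of 0.473 to 0.498. CEBPA had an estimate of 0.23 ± 0.24 (adjusted p = 0.709). CEBPD was the 1 factor with an estimate below 0 (-0.29 ± 0.27), and EBF1 (0.02 ± 0.12) and CEBPB (0.03 ± 0.23) lay nearest to 0. Groups overlapped for all 9 factors, where 7.44% of all genes tested did not. The marker sums of progenitors and fibroblasts (4038 to 6783 against 7162 to 10217 CPM) and of macrophages (338 to 547 against 648 to 919 CPM) were lower in BPA than in control fat without overlap, and their part in the factor levels was not tested.

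In visceral fat BPA and control ewes were compared in the same way. Again 0 of 9 factors were called by edgeR and 0 by DESeq2, with 1 of the 9 at an unadjusted p under 0.05; of all 14774 genes tested 0 were called (0%), with 1103 at an unadjusted p under 0.05 and 5 called by DESeq2. ZNF423 had the smallest p, with 265 ± 40.4 CPM in BPA fat and 205 ± 25.3 CPM in control fat (SD, n = 4 each; 0.38 ± 0.16, 95% interval 0.04 to 0.73, adjusted p = 0.658). Control 924 (235 CPM) lay above BPA replicate 984 (224 CPM). RXRA followed with 233 ± 23.4 and 192 ± 20.4 CPM (0.29 ± 0.14), KLF15 with 65.5 ± 19.9 and 51.1 ± 2.94 CPM (0.37 ± 0.20), and CEBPB with 297 ± 47.9 and 242 ± 41.4 CPM (0.31 ± 0.17), all with adjusted p of 0.658 to 0.672. PPARG averaged 255 ± 87.0 CPM in BPA fat and 267 ± 62.5 CPM in control fat, and the interval of its difference was wide (-0.06 ± 0.25, -0.61 to 0.48). CEBPA, CEBPD, EBF1 and EBF2 had estimates from -0.06 to 0.07. Groups overlapped for all 9 factors, where 4.09% of all genes tested did not. Endothelial marker sums were lower in BPA than in control visceral fat without overlap (2820 to 3070 against 3206 to 3592 CPM). Their part in the factor levels was not tested.

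The difference between both BPA effects, visceral minus subcutaneous, was tested in a fit of 16 libraries. Of the 9 factors 0 were called by edgeR (0% of 14793 genes; 917 genes at an unadjusted p under 0.05), 0 by DESeq2 and 0 had an unadjusted p under 0.05. The estimates ran from -0.29 ± 0.29 for PPARG (95% interval -0.90 to 0.32) to 0.28 ± 0.30 for CEBPB (-0.35 to 0.90). These intervals leave room for differences of either sign.

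Other genes of the pathway were read from 3 lists. Of the list of other promoters of adipogenesis, 29 genes were tested between depots in control ewes, and 5 were higher and 1 lower in visceral fat, against 7.17% and 6.16% of all genes. The higher ones were NR1H3, the liver X receptor α (60.8 against 37.0 CPM, log2 0.71 ± 0.13), NFIA, a nuclear factor I protein (657 against 425 CPM, 0.62 ± 0.14), MLXIPL, the glucose-sensing factor ChREBP (58.9 against 35.9 CPM, 0.70 ± 0.16), RXRG, which encodes another retinoid X receptor (66.2 against 31.8 CPM, 1.05 ± 0.26), and PRDM16, a cofactor of brown and beige fat (1.08 ± 0.29). TLE3, a corepressor family member that acts with PPARγ, was lower (61.9 against 94.9 CPM, -0.63 ± 0.17). In BPA ewes 0 of 28 were higher and 1 was lower (5.13% and 3.94% of all genes), BCL6, a repressor protein (87.8 against 182 CPM, -1.06 ± 0.30, adjusted p = 0.0498). In control ewes RXRG was called higher in the depot where RXRA had a lower estimate. Without any 1 of visceral controls 902, 908 and 928 or subcutaneous control 902, the count of higher genes was 3, and without subcutaneous controls 902 and 924 together it was 1. The count of lower genes in control ewes was 2 without visceral control 924 or subcutaneous control 931 and 0 without any 1 of the other 6 libraries, and DESeq2 called 4. In BPA ewes the count of lower genes was 1 without visceral BPA replicate 918 or 977 and 0 without any 1 of the other 6 libraries, so the call of BCL6 was lost in those fits.

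Of 23 restrainers of adipogenesis tested in control ewes, 2 were higher and 3 lower in visceral fat, against 7.17% and 6.16% of all genes. SOX9, a factor of progenitor cells, was higher (6.65 against 2.04 CPM, log2 1.68 ± 0.33), as was KLF7 (123 against 81.8 CPM, 0.58 ± 0.13). SMAD3, the TGF-β signal transducer (83.3 against 161 CPM, -0.96 ± 0.18), ZNF521, an antagonist of ZNF423 and EBF1 in mouse cells (62.2 against 107 CPM, -0.80 ± 0.21), and IRF4 (6.10 against 22.1 CPM, -1.87 ± 0.41) were lower. In BPA ewes NR2F2, the nuclear receptor COUP-TFII (101 against 53.2 CPM, 0.92 ± 0.16), and SOX9 were higher and SMAD3 was lower, 2 and 1 of 23, against 5.13% and 3.94% of all genes. SOX9 and SMAD3 were called the same way in both exposures, but the call of SMAD3 in BPA ewes was lost without subcutaneous BPA replicate 922 or 941 and with the fixed block. The count of higher restrainers in BPA ewes was 1 without visceral BPA replicate 910 or any 1 of subcutaneous BPA replicates 918, 922 and 941, and 3 at most. In control ewes it was 1 without visceral control 928, 3 at most, and 0 in the fit of 16 libraries.

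Among adipocyte genes that PPARγ and C/EBP proteins are known to control, 8 of 27 were higher in visceral fat of control ewes and 0 were lower, with a median log2 difference of 0.55 against -0.01 for all genes, of which 7.17% were called higher. ADIPOQ had 10795 ± 2364 CPM in visceral and 5546 ± 1621 CPM in subcutaneous control fat (SD, n = 4 each; log2 0.96 ± 0.25, edgeR adjusted p = 0.0286). LPL, the lipoprotein lipase, had 1095 ± 421 and 362 ± 103 CPM (1.59 ± 0.30), and DGAT2, which completes triglyceride synthesis, had 380 ± 152 and 85.0 ± 50.5 CPM (2.15 ± 0.48). ADRB3, the β3-adrenergic receptor of adipocytes, had 14.5 ± 3.29 CPM in visceral and 0.841 ± 1.22 CPM in subcutaneous control fat. The subcutaneous value of ADRB3 lay near the floor, with an SD above its mean. TRARG1, LPIN1 and ACSL1 were also called, with log2 differences from 0.89 to 1.44. In BPA ewes 2 of 27 were higher, ADRB3 and CFD, the adipsin gene, and 0 were lower, against 5.13% and 3.94% of all genes. The count in control ewes was 4 without any 1 of visceral controls 908 and 928 or subcutaneous control 924, and 3 without subcutaneous controls 902 and 924 together. With the number as a fixed block it was 15 higher and 3 lower. Calls over all genes moved too, from 556 to 1459 higher and from 487 to 1324 lower over the alternatives. The shares of the main fit are thus no background for these counts.

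**Figure D5:**
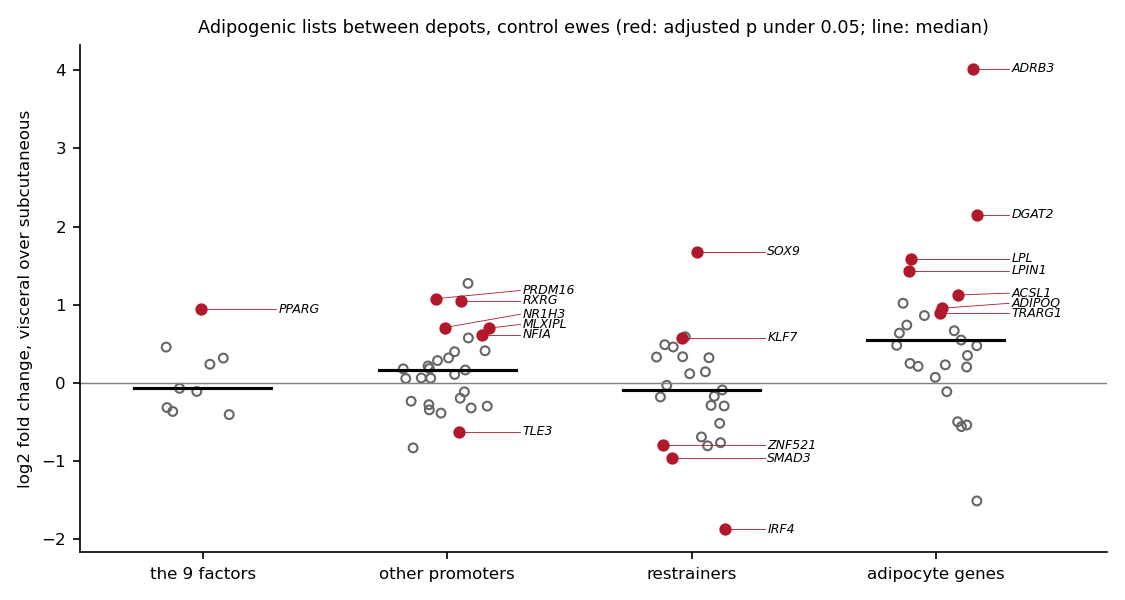
Log2 fold changes, visceral over subcutaneous fat of control ewes, of the 9 factors and the 3 lists (y axis); red points have an adjusted p under 0.05, black lines are medians of the whole lists, and 1 adipocyte gene is not drawn. Called adipocyte genes all lie above 0, called restrainers lie on both sides, and PPARG is the red point among the 9 factors.

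With BPA in subcutaneous fat, 1 of 27 other promoters was called higher, against 0.606% of all genes, and 0 lower. MLXIPL had 93.9 ± 22.9 CPM in BPA and 35.9 ± 5.83 CPM in control fat (SD, n = 4 each; log2 1.39 ± 0.19, edgeR adjusted p = 0.00868). Its call was lost when genes shorter than 200 bases were dropped, without subcutaneous controls 902 and 924, and in limma voom with the number as a random block. NR1H3 (0.60 ± 0.13, adjusted p = 0.0622), PPARGC1B, a coactivator of oxidative genes (0.99 ± 0.22, adjusted p = 0.0720), and SREBF1, the sterol and lipid synthesis regulator (0.89 ± 0.24, adjusted p = 0.139), were not called. Of 20 restrainers 0 were called by edgeR, 5 had an unadjusted p under 0.05 and DESeq2 called 1, with KLF3 (-0.45 ± 0.14) of the smallest p. Of 26 adipocyte genes 0 were called, 7 had an unadjusted p under 0.05 and DESeq2 called 1, with LPIN1, a phosphatidate phosphatase (1.18 ± 0.30, adjusted p = 0.115), of the smallest p. These unadjusted counts stand beside 1926 of 13535 for all genes. In visceral fat edgeR and DESeq2 called 0 of 29 promoters, 0 of 23 restrainers and 0 of 27 adipocyte genes, with 3, 1 and 0 at an unadjusted p under 0.05, and MLXIPL had an estimate of 0.93 ± 0.27 (adjusted p = 0.658).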

How the data were processed

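The submitters' processing notes name FastQC 0.11.5 and MultiQC 0.9 for quality, STAR 2.6.0c for alignment and featureCounts (Subread 1.6.1) for counting. Ribosomal RNA was removed before low-input library preparation, per the labels' protocols. The build, the annotation and the use of strand were not given in the sources used here. The authors deposited 1 count per gene and library for 28524 genes. The table's name calls them normalized, but 0 values are other than whole and totals run from 3046126 to 14305764, so they were treated as raw counts.

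The 8 libraries of each comparison, or all 16 for the difference of BPA effects and the average over exposures, were filtered with filterByExpr (minimum count 10, total 15), scaled with TMM and tested with edgeR 4.0.16 (glmQLFit, glmQLFTest, two-sided) in R 4.3.3. Benjamini-Hochberg adjustment ran over all genes tested. SE is the estimate over the square root of F. CPM are counts over the TMM-scaled total of the 16 libraries, and RPKM divide them by the deposited exonic length. The code was checked on simulated data. Alternatives were DESeq2 1.42.0, its size factors, 2 other filters, thinning to the lowest total, genes under 200 bases left out, a fit of 16 libraries, the title number as a fixed block in edgeR or a random one in limma 3.58.1, and each library left out.

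Same-numbered libraries correlated in their deviations from group means by 0.286, 0.40 and 0.332 in control ewes, and by 0.167 and 0.031 in BPA ewes. Numbers were therefore taken as pairs in control ewes, though the main fits held no block. The members, lists and tests were chosen with earlier results of these data known. The text names all 9 factors in each comparison of 2 groups and in the average over exposures. For the difference of BPA effects it names the lowest and the highest estimate. It names up to 4 genes of each list by smallest p, with other called ones named afterwards. The values of 1 called gene of the adipocyte list are not reported here, though the list's counts and median include it.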

Additional observations from a re-analysis of the deposited data

Results flagged for a closer look

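Of 36 groups of 4 libraries tested (9 factors in 4 groups), 4 held a library whose gap to its nearest neighbour, as a share of the group's range, passed Dixon's critical value of 0.829. Chance flags about 1 in 20 groups. Subcutaneous control 928 had 185 CPM of CEBPA, where the other 3 libraries of that group lay between 105 and 116 CPM. Visceral control 928 had 303 CPM of CEBPB, against 215 to 229.6 CPM in the others. The same library had 167 CPM of CEBPD, against 143 to 147 CPM. Visceral control 924 had 55.5 CPM of KLF15, against 49.3 to 49.8 CPM. Without subcutaneous control 928 the depot difference of CEBPA in control ewes was called (0.68, edgeR adjusted p = 0.0314).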

How the results depend on the processing

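PPARG was called higher in visceral than in subcutaneous control fat in each of 18 alternatives (log2 0.79 to 1.05, adjusted p 7.5e-06 to 0.0439), with 0.80 under the fixed replicate block. In control ewes 2 factors were called with DESeq2 (PPARG and RXRA) and 2 without subcutaneous controls 902 and 924 (PPARG and CEBPD), and 1 to 2 with single libraries left out. In BPA ewes 1 was called (PPARG) in the fit of 16 libraries and 0 to 1 with single libraries left out, the 1 being without visceral BPA replicate 977. Over both exposures 1 was called with the fixed replicate block and 3 to 5 with single libraries left out, 3 without visceral control 928, subcutaneous control 931 or subcutaneous BPA replicate 941. The random block in limma voom called 5. Calls over all genes moved as well. Over the alternatives they ran from 556 to 1459 higher and 487 to 1324 lower in control ewes (1037 and 891 in the main fit). They ran from 212 to 1311 and 157 to 1253 in BPA ewes, and from 1078 to 2665 and 762 to 2631 over both exposures. In both BPA comparisons and their difference 0 factors were called in every alternative run. The cause of these changes was not tested. The fixed block could not be fitted for BPA against control, where each number has 1 exposure, and in depot fits a number with 1 library adds nothing to the difference.

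Of the estimates for single factors, 37 changed sign, none of them a called one. Without subcutaneous controls 902 and 924 these were CEBPB with BPA in subcutaneous fat (-0.24) and between depots over both exposures (-0.076), and CEBPA (0.011), KLF15 (0.083) and EBF1 (-0.022) in the difference of BPA effects. With the fixed replicate block they were CEBPB between depots in control ewes (0.082), in BPA ewes (-0.23) and over both (-0.046), CEBPA in BPA ewes (-0.17), and CEBPB (-0.31), CEBPD (-0.40), EBF2 (0.076) and ZNF423 (-0.032) in the difference. In visceral fat with BPA they were EBF2 with no filter (-0.0013) and CEBPA with the random block (-0.034). With single libraries left out, CEBPB ranged from -0.083 to 0.16 with BPA in subcutaneous fat. In visceral fat with BPA, PPARG ranged from -0.29 to 0.091, CEBPA from -0.12 to 0.14, CEBPD from -0.22 to 0.074 and EBF2 from -0.16 to 0.14. Between depots in control ewes CEBPB ranged from -0.20 to 0.052 and KLF15 from -0.29 to 0.095. In the difference, RXRA ranged from -0.023 to 0.17, KLF15 from -0.37 to 0.0068, CEBPD from -0.048 to 0.37 and ZNF423 from -0.077 to 0.18.

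Counts over all genes moved more. With BPA in subcutaneous fat 82 were higher and 14 lower with edgeR, 251 and 213 with DESeq2, 1 and 0 with genes under 200 bases left out or with the random block, and 0 and 0 without subcutaneous controls 902 and 924. Between depots over both exposures 2308 were higher and 2110 lower, and 1078 and 762 with the fixed block. Between depots in BPA ewes 707 and 543 were called, 1211 and 986 with DESeq2 and 1311 and 1097 in the fit of 16 libraries. With 4 libraries a group, the 95% intervals limit what the BPA comparisons can show, and every factor had at least 215 counts in each library.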

Other observations

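The ratio of EBF1 to EBF2, close relatives, was also compared between depots. It did not pass adjustment, which needs most of the 52 tests to reach the smallest p that 4 against 4 allow. Per kilobase, EBF1 was 6.90 ± 1.88 times EBF2 in visceral and 4.56 ± 0.591 times in subcutaneous control fat (SD, n = 4 each), without overlap (exact permutation p = 0.0286, two-sided, and 0.186 adjusted over 52 such tests). In BPA ewes the ratio was 7.19 ± 1.98 in visceral and 3.92 ± 1.17 in subcutaneous fat (exact permutation p = 0.0571, adjusted 0.229), and the depots overlapped (5.25 to 9.90 against 2.86 to 5.59). Per 1000 counts of the 6 adipocyte markers, CEBPB (10.2 ± 1.57 against 17.2 ± 2.57), CEBPD (6.37 ± 0.912 against 13.2 ± 2.98), EBF2 (2.51 ± 0.745 against 5.08 ± 1.21) and RXRA (8.27 ± 2.21 against 17.5 ± 5.47) were lower in visceral than in subcutaneous control fat without overlap, each with an adjusted p of 0.186 (exact permutation). In BPA ewes these 4 ratios overlapped between depots, with 16.0 ± 5.42 and 16.4 ± 0.274 for CEBPB (exact permutation p = 0.886). The marker sum they are set against averaged 24009 CPM in visceral and 14930 CPM in subcutaneous control fat, while CEBPB itself had a depot difference of -0.07 ± 0.19 on the log2 scale.

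The genes whose log2 levels followed a factor most closely over the 16 libraries, among 9319 genes with a symbol and a mean of at least 10 CPM, are given as a description, since depot and library are shared by all points. PPARG was followed by FNBP1L (r = 0.95), LYRM2 (0.94) and DNTTIP2 (0.94). CEBPA was followed by ADIG, the adipogenin gene (0.91), MRAS (0.89) and EFNB1 (0.89). For CEBPB they were C2H2orf69 (0.82), LHPP (0.82) and CHERP (0.82), for CEBPD ALYREF (0.88), FBXL17 (0.87) and LATS2 (0.86), and for EBF2 CNOT10 (0.87), COG4 (0.86) and MTHFD1 (0.85). Of the 36 pairs of factors, 18 had a correlation of the same sign in both depots.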
